A study of Mus musculus with 15 samples.

Results

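The genes described here are 10 members of the T cell receptor (TCR) complex and of its first signalling steps: Cd247, Cd3d, Cd3e, Cd3g, Lck, Zap70, Themis, Ptpn7, Lat and Lcp2. They were taken by symbol from the table of counts, in which they are 10 of 53762 genes, and all 10 were among the 16550 genes tested. RNA was sequenced from 15 libraries of sorted mature mouse thymocytes, 3 in each of 5 groups. The question in the series title is gene expression in MHC class II-restricted thymocytes that differ in Thpok-RKF.

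The first group, Thpok-RKF+ CD4+CD8+ (abbreviated RKF+ CD4+CD8+), came from CD45.2+ marrow with Thpok fl/fl, Runx3 fl/dYFP, Cd4-Cre+ and Thpok-RKF+. The groups RKF- CD4+CD8+ and RKF- CD8 single-positive (SP) came from marrow with the same floxed alleles and Cd4-Cre+ but Thpok-RKF-. What Thpok-RKF is, the labels do not say. WT CD4 SP cells were CD45.1+CD45.2+ competitors from mixed marrow chimeras in B2m-/- hosts, which lack MHC class I at the surface. WT CD8 SP cells were such competitors from I-Ab-/- hosts, which lack MHC class II. The mutant cells also came from mixed chimeras in B2m-/- hosts, so hosts differ in the comparisons with WT CD8 SP. Every group was C57BL/6, shared the gate CD44lo TCRbhi CD24lo CD69lo, and had developed in a chimera. Cd4-Cre acts only from the stage at which thymocytes switch on Cd4, so earlier thymocytes carried intact floxed alleles. The WT CD4 SP group and the WT CD8 SP group came from different hosts, so host and lineage cannot be told apart between them. No label says that the replicates came from separate animals, so each p-value here speaks only of the spread among these libraries, and that spread may be technical.

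The TCR binds peptide on MHC molecules through its alpha and beta chains and has no kinase of its own. The CD3 chains, encoded by Cd3d, Cd3e and Cd3g, and the zeta chain, encoded by Cd247, carry the signal inward: Lck phosphorylates their tyrosine motifs, Zap70 docks on them, and Zap70 phosphorylates the adaptors Lat and Lcp2 (SLP-76). CD4 and CD8 bring Lck to the receptor, Themis is needed for thymocytes to pass positive selection, and Ptpn7 is a phosphatase of haematopoietic cells that acts on MAP kinases.

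Libraries held 37311823 to 48607260 gene counts, of which the 10 genes held 0.726% to 1.20%. Zbtb7b, which encodes Thpok, had a mean of 801 CPM in RKF+ CD4+CD8+ cells, 2.46 in RKF- CD4+CD8+, 2.18 in RKF- CD8 SP, 56.8 in WT CD4 SP cells and 0.236 in WT CD8 SP cells. The labels do not say whether reads of Thpok-RKF are counted as Zbtb7b, so the RKF+ level cannot be assigned to the cells' own gene. CPM stands for read counts scaled to a common library size, with edgeR's TMM factors, and is comparable between libraries but not between genes of different length. Runx3 had means of 305, 279 and 267 CPM in these mutant groups, against 28.8 CPM in WT CD4 SP cells and 206 CPM in WT CD8 SP cells; reads outside a deleted stretch still count, so this does not check its deletion. The summed level of 6 mature T cell genes was 5001 to 7928 CPM per library, while Ms4a1, which marks B cells, was at 0 in every library. The 4 NK or innate-like genes, of which Ncr1 was at 0 in every library, summed to 0.122 to 5.13 CPM. Of the 3 of them tested, 2 fell in RKF- CD4+CD8+ against WT CD8 SP cells, where 7.04% of all genes were called lower. In WT CD4 SP against WT CD8 SP cells 1 fell, where 10.3% of all genes were called lower. Of the B cell genes, Ighm was counted in every library, with 347 to 1092 CPM. The 4 regulatory T cell genes summed to 32.9 to 49.6 CPM in RKF+ CD4+CD8+ libraries, against 65.5 to 127 CPM in RKF- CD4+CD8+ libraries. Their part in the differences of the 10 genes was not tested. Lyz2, a myeloid gene, exceeded 10 CPM in RKF+ CD4+CD8+ library 1 and WT CD4 SP library 1. The 5 libraries numbered 1 stood apart from the rest, with 1543 genes called between them and the others: within groups, Cd3d was lower in them by a log2 change of -0.29, Cd3g by -0.33, Lck by -0.31 and Zap70 by -0.27. Cd3d and Cd3g were lowest in library 1 in all 5 groups.

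A gene was called when its adjusted p was under 0.05 in edgeR's quasi-likelihood test with Benjamini-Hochberg adjustment over the 16550 genes. This fit took no account of replicate numbers. Between the 5 groups there were 10 pairwise comparisons, which gives 100 pairs of a gene and a comparison, and 29 were called. Of all genes, 0.961% to 18.4% were called in a comparison. Cd247 and Ptpn7 made up 15 of the 29. Among the other 8 genes the widest change was a log2 change of 0.73 in size, a fold of 1.65. In the test for any difference among the 5 groups, which called 27.9% of all genes, 5 of the 10 were called. Cd247 had the smallest adjusted p of all genes tested, 2.04e-10, and Ptpn7 was at rank 76 with 2.36e-07. Themis (adjusted p = 0.000259), Lat (0.00571) and Cd3e (0.0207) were called too. Lcp2 (0.0689), Cd3g (0.113), Lck (0.128), Cd3d (0.777) and Zap70 (0.828) were not.

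Counts of these genes by comparison were small and are given beside the share of all genes called. RKF+ CD4+CD8+ against RKF- CD4+CD8+ had 2 that rose and 0 that fell, where 0.586% of all genes were called higher and 0.375% lower. RKF+ CD4+CD8+ against RKF- CD8 SP had 2 that rose and 1 that fell (3.4% and 2.11% of all genes). RKF+ CD4+CD8+ cells had 2 that rose and 0 that fell against WT CD4 SP (4.36% and 2.91%), and 3 that rose and 1 that fell against WT CD8 SP (4.97% and 6.11%). The first of these comparisons called the fewest genes overall. RKF- CD4+CD8+ had 1 that rose and 0 that fell against RKF- CD8 SP (1.72% and 0.719%). The same cells had 1 that rose and 2 that fell against WT CD4 SP (9.15% and 8.42%), and 0 that rose and 2 that fell against WT CD8 SP (5.11% and 7.04%). RKF- CD8 SP cells had 2 that rose and 2 that fell against WT CD4 SP (8.91% and 8.75%), and 2 that rose and 1 that fell against WT CD8 SP (7.77% and 10.6%). Between the wild types, WT CD4 SP had 3 that rose and 2 that fell against WT CD8 SP (7.72% and 10.3%). The median log2 change of the 10 genes was 0.18 in RKF+ against RKF- CD4+CD8+ cells, where that of all genes was 0.01, and 0.19 between the wild types, where that of all genes was -0.03. These comparisons share groups, so their values are not independent of each other.

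**Figure D1:**
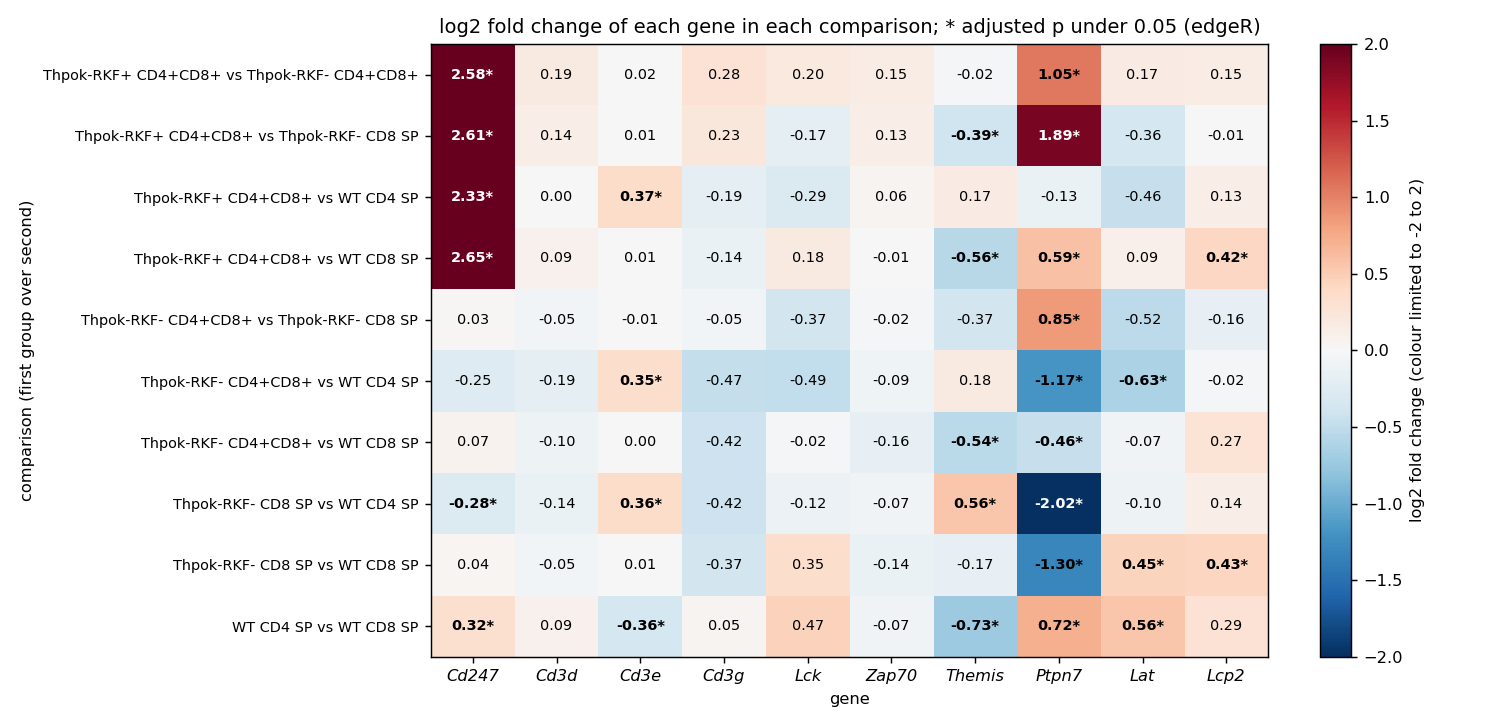
Heat map of the log2 fold change of each of the 10 genes (columns) in each of the 10 comparisons between groups (rows, first group over second), with an asterisk where edgeR's adjusted p was under 0.05. Cd247 was at 2.33 or more in all 4 comparisons with RKF+ CD4+CD8+ cells, and Cd3d, Cd3g, Lck and Zap70 carry no asterisk.

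Cd247, the zeta chain gene, was about 6-fold higher in RKF+ CD4+CD8+ cells than in RKF- CD4+CD8+ cells. It had 2375, 2772 and 2699 CPM in the 3 RKF+ CD4+CD8+ libraries, against 427, 459 and 422 in RKF- CD4+CD8+, 418, 438 and 429 in RKF- CD8 SP, 537, 463 and 559 in WT CD4 SP, and 400.5, 419 and 429.8 in WT CD8 SP libraries. Every RKF+ library lay far above every library of the other 4 groups. The log2 change against RKF- CD4+CD8+ was 2.58 (SE 0.096, adjusted p = 1.8e-09), a fold of 6.00 with a 95% interval of 5.20 to 6.92. It was 2.61 against RKF- CD8 SP (adjusted p = 1.58e-09), 2.33 against WT CD4 SP (1.33e-09) and 2.65 against WT CD8 SP (1.31e-09). In a bulk sample, fewer cells of a type and less RNA per cell cannot be told apart. Between the other groups the changes of Cd247 were small. WT CD4 SP cells had more than WT CD8 SP cells, by a log2 change of 0.32 (adjusted p = 0.025), and RKF- CD8 SP had less than WT CD4 SP, by -0.28 (0.0471). RKF- CD4+CD8+ against WT CD4 SP gave -0.25 (0.0692), although their libraries did not overlap. The 2 RKF- groups and WT CD8 SP overlapped and were not told apart by the test. The WT call was lost without WT CD4 SP library 1 or 3 or WT CD8 SP library 1 or 2 (adjusted p = 0.0588 to 0.0664) and with no filter on low counts (0.177). The RKF- CD8 SP call was lost in 17 of 27 alternatives, with adjusted p up to 0.316 with no filter. It was lost (0.0511 to 0.132) without any 1 of 10 libraries, which were every RKF- CD8 SP library, RKF+ 2 and 3, RKF- CD4+CD8+ 3, WT CD4 SP 1 and 3 and WT CD8 SP 2 and 3. The RKF- CD4+CD8+ difference from WT CD4 SP was called without RKF+ library 1 (-0.27, 0.0243) or WT CD4 SP library 2 (-0.34, 0.0322).

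**Figure D2:**
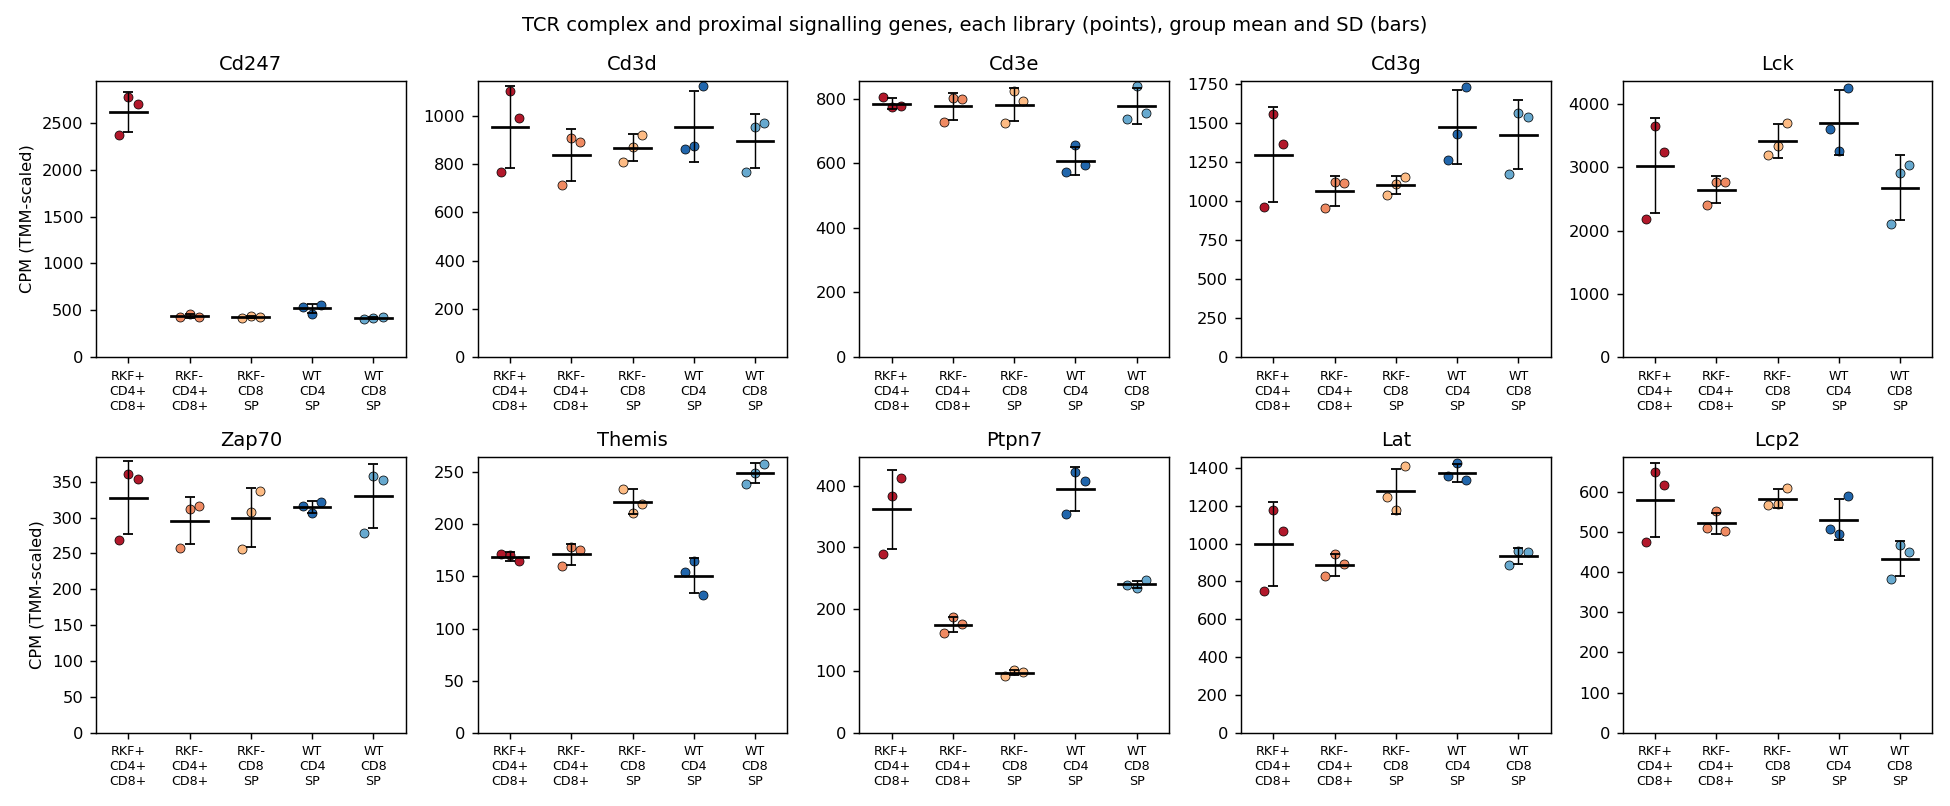
CPM of each of the 10 genes (one panel each, y axis from 0) in each library of the 5 groups, with bars at the group mean and SD of 3 libraries. Cd247 stands at 2375 to 2772 CPM in RKF+ CD4+CD8+ cells and at 400.5 to 559 CPM elsewhere, while Ptpn7 is lowest, 92.5 to 101 CPM, in RKF- CD8 SP cells.

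By length, Cd247 changed its place among the 10 genes. Per kilobase of merged exons, in the GRCm38 annotation, it stood at 491 CPM per kb in RKF+ CD4+CD8+ cells, the third highest, and at 78.2 to 97.5 CPM per kb in the other 4 groups, where it was at rank 8. Lck was the highest per kb in all 5 groups (904 to 1266 CPM per kb) and Cd3d was next (462 to 526). Themis and Ptpn7 were the lowest.

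The promoters of the 2 genes that rose in RKF+ CD4+CD8+ cells are shown with that of Lck, which did not pass the test there. The sequences are from RefSeq (GRCm38.p6), each the 250 bases before the annotated start, 5′ to 3′ on the gene's strand: Cd247 at chr1:165788431-165788680 (+), the 2 listed starts of Ptpn7 at chr1:135132450-135132699 (+) and chr1:135133059-135133308 (+), and the first of 2 listed starts of Lck at chr4:129573642-129573891 (-). Capitals mark TGTGGT, the core bound by RUNX factors.
Cd247: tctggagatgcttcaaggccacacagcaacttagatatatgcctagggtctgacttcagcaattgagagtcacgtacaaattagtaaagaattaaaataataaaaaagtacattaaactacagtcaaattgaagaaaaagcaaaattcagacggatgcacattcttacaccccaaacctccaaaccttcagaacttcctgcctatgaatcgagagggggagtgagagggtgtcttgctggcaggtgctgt
Ptpn7 first start: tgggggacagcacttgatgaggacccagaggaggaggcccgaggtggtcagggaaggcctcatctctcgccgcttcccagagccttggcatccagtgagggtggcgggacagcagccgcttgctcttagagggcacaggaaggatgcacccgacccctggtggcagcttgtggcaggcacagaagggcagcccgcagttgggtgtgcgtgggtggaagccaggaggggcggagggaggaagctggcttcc
Ptpn7 second start: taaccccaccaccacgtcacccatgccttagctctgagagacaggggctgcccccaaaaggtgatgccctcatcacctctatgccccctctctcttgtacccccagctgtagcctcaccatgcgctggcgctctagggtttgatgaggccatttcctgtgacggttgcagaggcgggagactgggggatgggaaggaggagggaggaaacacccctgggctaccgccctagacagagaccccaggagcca
Lck: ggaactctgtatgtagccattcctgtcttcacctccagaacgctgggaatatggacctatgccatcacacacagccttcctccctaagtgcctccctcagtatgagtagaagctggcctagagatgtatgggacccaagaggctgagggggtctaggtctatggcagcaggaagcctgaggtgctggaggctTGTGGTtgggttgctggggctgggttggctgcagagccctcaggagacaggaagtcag
TGTGGT and the ETS core CCGGAAG were searched on both strands; neither word contains the other. TGTGGT was in 14% and CCGGAAG in 6.91% of 32851 promoters. Neither was in the windows of Cd247 or Ptpn7. The first listed start of Lck had TGTGGT 58 bases before it, and the window of the second start of Lck held neither word. Among the other 7 genes, TGTGGT was in the window of 1 of 3 listed starts of Zap70, 75 bases before it, and CCGGAAG was in none. A match is a description of letters and was not tested as a binding site. The window of Cd247 had 41.2% G and C, and those of Ptpn7 had 66% and 61.2%.

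The tested genes nearest to Cd247 on either side on chromosome 1 did not pass the test in any comparison of RKF+ CD4+CD8+ cells. Genes left out by the expression filter were passed over in this choice. Rcsd1 and Creg1 lie before Cd247 and Pou2f1 and Tada1 after it. In RKF+ against RKF- CD4+CD8+ cells their log2 changes were 0.06, 0.13, -0.11 and 0.24. Over the 4 comparisons of RKF+ CD4+CD8+ cells, edgeR called 0 of these values, with 3 at an unadjusted p under 0.05, DESeq2 called 2 and limma 0. The gene models of Cd247 and Pou2f1 overlap in the RefSeq table, and the strand setting of the counting is not given in the sources used here, so reads there cannot be assigned for certain. Pou2f1 averaged at most 27.9 CPM in any group.

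By the distance used here, which also counts the size of changes, no gene lay close to Cd247 over the 15 libraries. Of 8636 genes, Rcn3 came nearest in centred log2 CPM, at a root mean square difference of 0.53 log2 units, where Cd247 itself had an SD of 1.06. Rcn3, a calcium-binding protein of the endoplasmic reticulum, averaged 47.7 CPM in RKF+ CD4+CD8+ cells and 16.5 to 18.4 CPM in the other groups. The next were Il12rb1 (0.59), a chain of the interleukin-12 receptor, Pafah1b3 (0.60), Gm19585 (0.61) and Gpr132 (0.64). Pafah1b3 averaged 48.5 CPM in RKF+ CD4+CD8+ cells, 17.5 in RKF- CD4+CD8+, 18.8 in RKF- CD8 SP, 8.08 in WT CD4 SP cells and 11.0 in WT CD8 SP cells. For the other 9 genes the nearest were closer, at 0.055 to 0.22: Smu1 for Cd3d, Bzw2 for Cd3e, Mrpl18 for Cd3g, Tprgl for Lck, Sf3b2 for Zap70, Hsph1 for Themis, Adk for Ptpn7, Eif5 for Lat and Trbc2 for Lcp2. The distance is smaller for genes that vary little, and it is large for a gene with the pattern of Cd247 but smaller changes. It is therefore a description only, and cannot show that no gene shares that pattern.

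None of the CD3 chain genes passed the test in RKF+ against RKF- CD4+CD8+ cells. Cd3d had 767, 1101 and 992 CPM in RKF+ CD4+CD8+ libraries, against 715, 908 and 891 in RKF- CD4+CD8+ libraries, and the groups overlapped (log2 change 0.19, 95% interval -0.14 to 0.51). Across all 5 groups its means ran only from 838 to 955 CPM, a fold of 1.14. Cd3g had 963, 1560 and 1370 CPM in RKF+ CD4+CD8+, against 957, 1125 and 1118 in RKF- CD4+CD8+ libraries, which overlapped as well (0.28, -0.07 to 0.64). Cd3e had 804.5, 773 and 776 CPM against 728, 803 and 798 CPM in the same groups (0.02, -0.18 to 0.21). These intervals still allow changes of the sizes they span.

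Cd3e was lower in WT CD4 SP than in the other 4 groups, whose means of 776 to 785 CPM lay close together. It had 572, 656 and 595 CPM in WT CD4 SP libraries, against 736, 841 and 754 in WT CD8 SP libraries, without overlap. The log2 change between them was -0.36 (adjusted p = 0.0127). Against WT CD4 SP it was 0.37 in RKF+ CD4+CD8+ (0.0203), 0.35 in RKF- CD4+CD8+ (0.0152) and 0.36 in RKF- CD8 SP cells (0.0126). All 4 calls rest on the same 3 WT CD4 SP libraries, and each was lost without WT CD4 SP library 1 or library 3. They were also lost without WT CD8 SP library 2, RKF+ library 1 or 3, RKF- CD4+CD8+ library 2 or 3, or RKF- CD8 SP library 2 or 3, each in its own comparison. The adjusted p was then at most 0.118 for RKF+ CD4+CD8+, 0.0889 for RKF- CD4+CD8+, 0.101 for RKF- CD8 SP and 0.0982 for the wild types. With no filter on low counts all 4 calls were lost as well (0.0671 to 0.137). The call of RKF+ CD4+CD8+ was also lost without the libraries with Lyz2 above 10 CPM (0.154), with only the compared groups (0.150) and without the libraries numbered 1 (0.0652). That of the wild types was lost in the first and second of these settings (0.0649 and 0.0662).

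Cd3d was called in 0 of 10 comparisons by edgeR, DESeq2 and limma, with 0 at an unadjusted p under 0.05. Cd3g was called in 0 of 10 by edgeR and limma and in 1 by DESeq2, with 4 at an unadjusted p under 0.05. Its means were 1298 CPM in RKF+ CD4+CD8+, 1066 in RKF- CD4+CD8+, 1104 in RKF- CD8 SP, 1476 in WT CD4 SP cells and 1427 in WT CD8 SP cells. The RKF- groups were the lowest, at log2 changes of -0.47 (0.0662) for RKF- CD4+CD8+ and -0.42 (0.0988) for RKF- CD8 SP against WT CD4 SP, and of -0.42 (0.123) and -0.37 (0.15) against WT CD8 SP. Same-numbered libraries varied together in 3 of these comparisons, and with the replicate block the changes in them were -0.41 (0.0187) for RKF- CD4+CD8+ against WT CD8 SP, -0.41 (0.0160) for RKF- CD8 SP against WT CD4 SP, and -0.36 (0.0287) for RKF- CD8 SP against WT CD8 SP. Without the 5 libraries numbered 1, Cd3g was called in 6 comparisons, among them RKF+ against RKF- CD4+CD8+ (0.38, 0.0277). All genes called in that comparison then numbered 1753, in place of 159. Leaving out RKF+ library 1 alone gave calls for RKF- CD4+CD8+ against WT CD4 SP (-0.48, 0.0152) and WT CD8 SP (-0.41, 0.0472) and for RKF- CD8 SP against WT CD4 SP (-0.44, 0.0253), and leaving out RKF+ library 2 gave the first of these (-0.48, 0.0495).

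Within a library, the share of zeta chain counts among the CD3 and zeta chain counts does not depend on the library size. Cd247 made up 46.4% ± 1.86 of the 4 genes' counts in RKF+ CD4+CD8+ cells, 14.0% ± 1.04 in RKF- CD4+CD8+, 13.5% ± 0.481 in RKF- CD8 SP, 14.7% ± 1.66 in WT CD4 SP cells and 11.9% ± 0.997 in WT CD8 SP cells (SD, n = 3 each). The ratio of Cd247 to the geometric mean of Cd3d, Cd3e and Cd3g was 2.82, 2.52 and 2.65 in the RKF+ libraries, against 0.539, 0.491 and 0.455 in the RKF- CD4+CD8+ libraries. The groups did not overlap, with a log2 difference of 2.43, a fold of 5.39. The two-sided exact permutation p was 0.1, the smallest that 3 against 3 libraries can give. With the sum of the CD3 genes as the denominator the difference was 2.41, and with Cd3e alone 2.57.

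Ratios among the CD3 genes themselves spanned less. Cd3e over Cd3d averaged 0.844 in RKF+ CD4+CD8+, 0.932 in RKF- CD4+CD8+, 0.901 in RKF- CD8 SP, 0.646 in WT CD4 SP cells and 0.874 in WT CD8 SP cells. Cd3g over Cd3d averaged 1.35, 1.28 and 1.27 in these mutant groups, against 1.55 in WT CD4 SP cells and 1.59 in WT CD8 SP cells. Every mutant library was at most 1.42 in this ratio and every WT library at least 1.46.

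**Figure D3:**
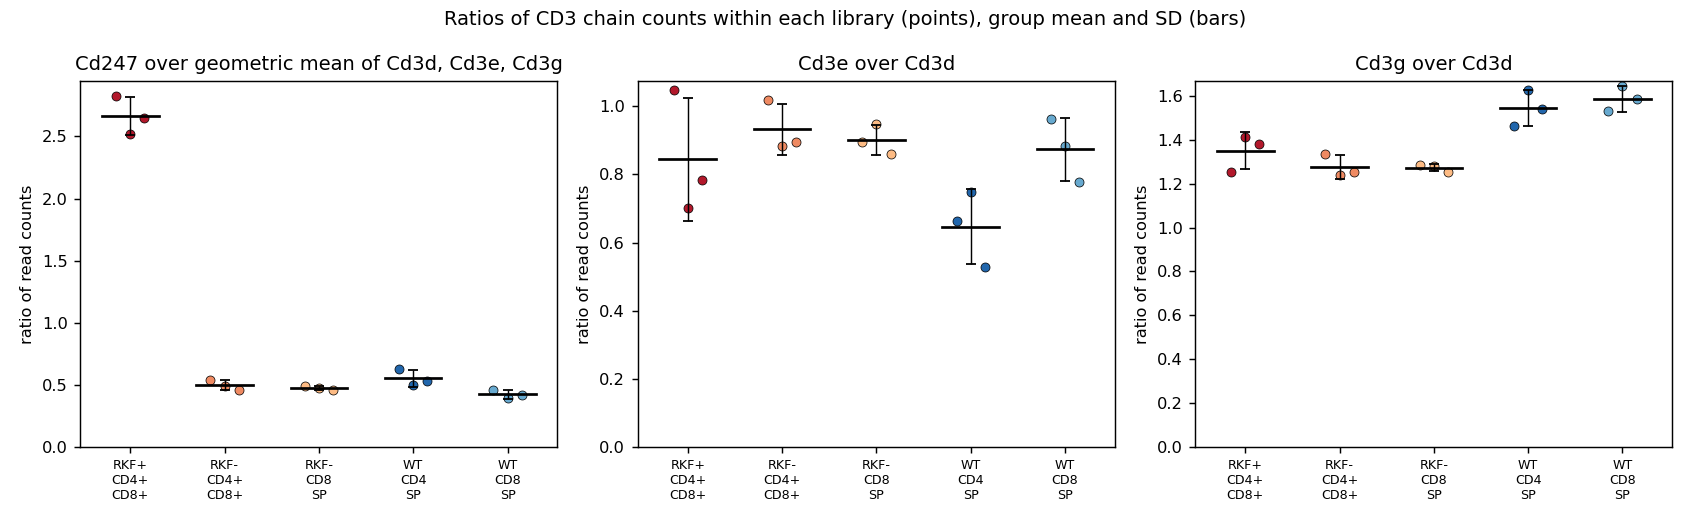
Ratios of read counts within each library (points) with the group mean and SD (bars, n = 3): Cd247 over the geometric mean of the CD3 genes, Cd3e over Cd3d and Cd3g over Cd3d. The first ratio averages 2.67 in RKF+ CD4+CD8+ cells and 0.421 to 0.552 in the other 4 groups, and the Cd3g ratio is lower in the 3 mutant groups than in both WT groups.

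Lck, the kinase that starts the cascade, was called in 0 of 10 comparisons by edgeR, with 2 at an unadjusted p under 0.05, in 2 by DESeq2 and in 1 by limma. It had 2191, 3649 and 3251 CPM in RKF+ CD4+CD8+, against 2403, 2765 and 2773 in RKF- CD4+CD8+ libraries, and the spread of the RKF+ group covered the other. Its log2 change was 0.20 (95% interval -0.18 to 0.57). WT CD4 SP libraries had 3612, 3253 and 4260 CPM, against 2097, 2916 and 3031 in WT CD8 SP libraries, which did not overlap (0.47, adjusted p = 0.0777). RKF- CD8 SP libraries, with 3203, 3333 and 3711 CPM, lay above those of RKF- CD4+CD8+ and of WT CD8 SP and overlapped those of WT CD4 SP. RKF- CD4+CD8+ gave -0.37 (0.462) against RKF- CD8 SP and -0.49 (0.0675) against WT CD4 SP. Without RKF+ library 1, Lck was called between the wild types (0.49, 0.0151) and in RKF- CD4+CD8+ against WT CD4 SP (-0.50, 0.0141), and without WT CD8 SP library 1 the second was called (-0.50, 0.0457).

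Zap70, the kinase that docks on phosphorylated zeta and CD3 chains, had the smallest span of group means among the 10 genes, a fold of 1.11. It had 269, 361 and 354 CPM in RKF+ CD4+CD8+, 258, 312 and 317 in RKF- CD4+CD8+, 256, 307 and 337 in RKF- CD8 SP, 317, 306 and 322 in WT CD4 SP, and 278, 359 and 352 in WT CD8 SP libraries. All 5 groups overlapped. It was called in 0 of 10 comparisons by edgeR, DESeq2 and limma, with 0 at an unadjusted p under 0.05, and the interval in RKF+ against RKF- CD4+CD8+ was -0.16 to 0.45 on the log2 scale.

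Themis, which acts in positive selection, was higher in the CD8 SP groups. It had 172, 171 and 164 CPM in RKF+ CD4+CD8+, 160.0, 178 and 176 in RKF- CD4+CD8+, 234, 211 and 220 in RKF- CD8 SP, 155, 165 and 132 in WT CD4 SP, and 239, 249 and 258 in WT CD8 SP libraries. Both CD8 SP groups lay above all libraries of the 3 groups that express Cd4. The log2 change of WT CD4 SP against WT CD8 SP was -0.73 (adjusted p = 0.000154). Against WT CD8 SP it was -0.56 in RKF+ CD4+CD8+ (0.00173) and -0.54 in RKF- CD4+CD8+ cells (0.0022). RKF- CD8 SP had more than WT CD4 SP, by 0.56 (0.00137). Against RKF- CD8 SP, Themis fell in RKF+ CD4+CD8+ cells by 0.39 on the log2 scale (0.0317), while RKF- CD4+CD8+ cells, at -0.37, missed the threshold (0.0695). The call for RKF+ was lost when any of 11 libraries was left out (adjusted p = 0.0507 to 0.125), namely RKF+ 2 or 3, RKF- CD4+CD8+ 2 or 3, WT CD4 SP 1, or any RKF- CD8 SP or WT CD8 SP library, and with no filter (0.105), only the compared groups (0.116) or no libraries numbered 1 (0.0777). Without WT CD4 SP library 3 the RKF- CD4+CD8+ difference was called (-0.37, 0.0414). RKF+ and RKF- CD4+CD8+ cells gave -0.02 (95% interval -0.23 to 0.19).

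Ptpn7, the MAP kinase phosphatase, took a different level in nearly every group and was called in 9 of 10 comparisons. It had 290, 383 and 413 CPM in RKF+ CD4+CD8+, against 162, 188 and 175 in RKF- CD4+CD8+ libraries. All RKF+ libraries lay above all RKF- libraries, with a log2 change of 1.05 (SE 0.12, adjusted p = 0.000742), a fold of 2.07 with a 95% interval of 1.72 to 2.49. RKF- CD8 SP libraries had 92.5, 101 and 98.5 CPM, the lowest of all. WT CD4 SP libraries had 354, 422 and 408 CPM, against 239, 235 and 247 in WT CD8 SP libraries.

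The order of its means was WT CD4 SP, RKF+ CD4+CD8+, WT CD8 SP, RKF- CD4+CD8+ and RKF- CD8 SP, from high to low. The first neighbours overlapped and were not told apart (RKF+ CD4+CD8+ against WT CD4 SP, log2 change -0.13, adjusted p = 0.635), and the other 3 steps were called. RKF+ CD4+CD8+ had more Ptpn7 than WT CD8 SP (0.59, 0.00555) and than RKF- CD8 SP (1.89, 7.19e-07). RKF- CD4+CD8+ had more than RKF- CD8 SP (0.85, 0.0013). Both RKF- groups fell against WT CD4 SP, RKF- CD4+CD8+ with -1.17 (2.71e-05) and RKF- CD8 SP with -2.02 (8.67e-08). Against WT CD8 SP, RKF- CD8 SP fell with -1.30 (4.49e-06) and RKF- CD4+CD8+ with -0.46 (0.0252). That last call was lost without any 1 of the RKF- CD4+CD8+ or WT CD8 SP libraries or without RKF- CD8 SP library 2 (adjusted p = 0.0508 to 0.140), and with no filter (0.0548). WT CD4 SP had more than WT CD8 SP (0.72, 0.00104).

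Lat, the membrane adaptor on which signalling enzymes assemble, was higher in WT CD4 SP than in WT CD8 SP cells and in RKF- CD8 SP than in WT CD8 SP cells. It had 1356, 1425 and 1338 CPM in WT CD4 SP, against 887, 962 and 955 in WT CD8 SP libraries (log2 change 0.56, SE 0.13, adjusted p = 0.0098). RKF- CD4+CD8+ libraries had 829, 944 and 891 CPM, against 1248, 1175 and 1408 in RKF- CD8 SP libraries. So the CD4-expressing group was the higher in the wild types and the lower in the mutants, without overlap in either pair. The mutant difference of -0.52 just missed the threshold (0.0547). It was called with the replicate block (-0.53, 0.0270), and without RKF+ library 1 (-0.52, 0.00383) or RKF+ library 2 (-0.53, 0.0348). RKF- CD4+CD8+ fell against WT CD4 SP with -0.63 (0.00632). RKF- CD8 SP rose against WT CD8 SP with 0.45 (0.0285), a call lost without RKF- CD8 SP library 1 or 3 or any WT CD8 SP library (adjusted p = 0.0604 to 0.118).

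RKF+ CD4+CD8+ libraries had 750.2, 1179 and 1065 CPM of Lat and overlapped RKF- CD4+CD8+ libraries (0.17, 95% interval -0.11 to 0.45). Without RKF+ library 1, which had the highest share of reads outside genes (11.2%, where the lowest library had 5.09%), Lat was called there (0.35, 0.0368). All genes called in that comparison then numbered 1677, in place of 159. Against WT CD4 SP, RKF+ CD4+CD8+ gave -0.46 (0.0506), which did not pass the test. It was called without RKF+ library 2 (-0.59, 0.0177), with relative log expression factors (0.0434), by DESeq2 (0.0119) and limma (0.0225 and 0.0171), and with the replicate block (0.0226), a term for the libraries numbered 1 (0.0145) or the covariate for reads outside genes (-0.40, 0.00463). It was not called with no filter, with only the compared groups, or without the libraries numbered 1 or those with Lyz2 above 10 CPM.

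The difference between both contrasts, which is the log2 change of RKF- CD4+CD8+ over RKF- CD8 SP cells minus that between the wild types (CD4 SP over CD8 SP), was tested itself. It called 2 of the 10 genes lower and 0 higher, where 5.79% of all genes were called lower and 8.47% higher. They were Lat, with a log2 difference of -1.08 (SE 0.19, adjusted p = 0.00146), and Lck, with -0.84 (SE 0.25, 0.0352). For Ptpn7 the value was 0.13 (0.705), as it was higher in the CD4-expressing group of both pairs. Themis gave 0.35 (0.113), Cd3e 0.35 (0.0833) and Lcp2 -0.45 (0.0973). Lat kept its call without any 1 library (-1.16 to -1.02). Lck lost it when any of 9 libraries was left out (adjusted p = 0.0505 to 0.0833), which were all RKF- CD4+CD8+ libraries, RKF- CD8 SP 2 and 3, WT CD4 SP 1 and 3 and WT CD8 SP 1 and 2. Lcp2 was called without RKF+ library 1 (-0.47, 0.0214).

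**Figure D4:**
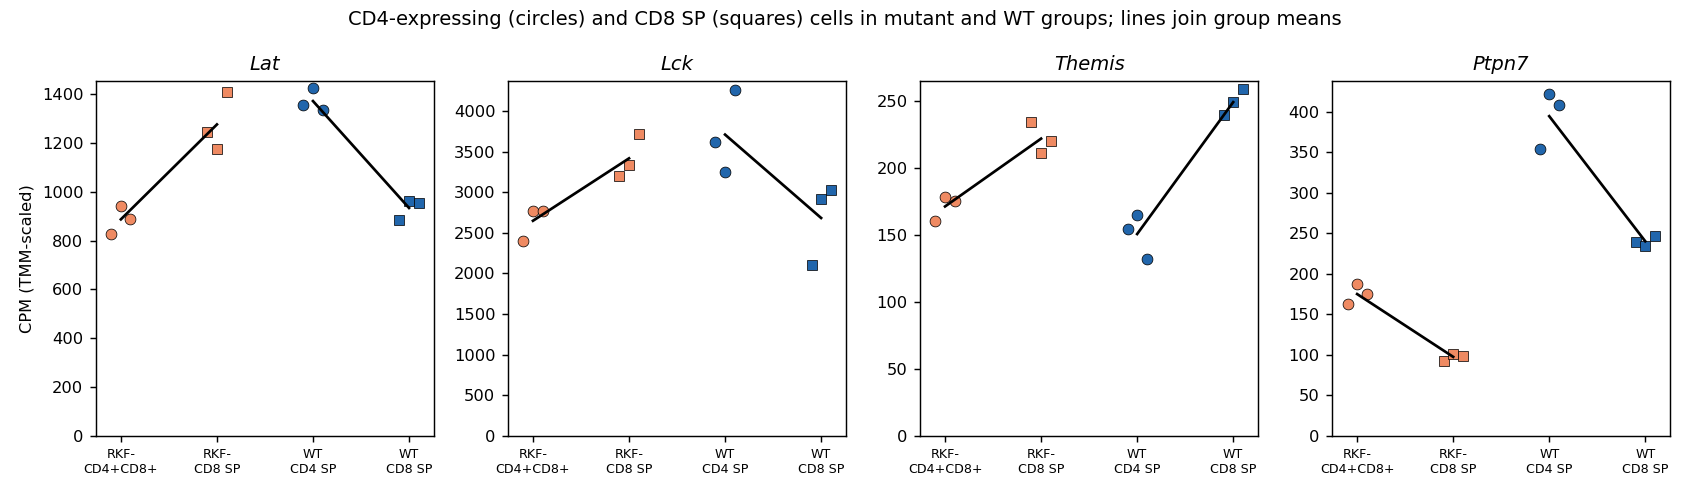
CPM of Lat, Lck, Themis and Ptpn7 in each library of RKF- CD4+CD8+ and RKF- CD8 SP cells and of both wild types, with lines that join group means. The means of Lat and Lck are lower in the CD4-expressing group of the mutant pair and higher in that of the WT pair. The mean of Themis is lower and that of Ptpn7 higher in the CD4-expressing group of both pairs. In edgeR's test the mutant pair was not called for Lat, Lck or Themis, nor the WT pair for Lck.

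Lcp2, the cytosolic adaptor SLP-76, was lowest in WT CD8 SP cells. It had 476, 649 and 618 CPM in RKF+ CD4+CD8+, 511, 552 and 503 in RKF- CD4+CD8+, 569, 571 and 610.0 in RKF- CD8 SP, 508, 494 and 589 in WT CD4 SP, and 384, 467 and 450.4 in WT CD8 SP libraries. No library of the other 4 groups was lower than the highest in WT CD8 SP. Lcp2 rose against WT CD8 SP in RKF+ CD4+CD8+ (0.42, adjusted p = 0.0365) and in RKF- CD8 SP cells (0.43, 0.023). The first call was lost without RKF+ library 2 or 3 or any WT CD8 SP library (adjusted p = 0.0584 to 0.132), with no filter (0.0839) or with only the compared groups (0.115), and the second without RKF- CD8 SP library 2 or 3 or WT CD8 SP library 1 or 3 (0.0519 to 0.0876). RKF- CD4+CD8+ against WT CD8 SP gave 0.27 (0.181) and WT CD4 SP against WT CD8 SP gave 0.29 (0.116), which was called without RKF+ library 1 (0.32, 0.0240). RKF+ against RKF- CD4+CD8+ cells gave 0.15 (95% interval -0.10 to 0.41).

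Of 63 further genes of the pathway, listed in 4 groups, 62 were measured. In RKF+ against RKF- CD4+CD8+ cells 1 rose and 0 fell: Ppp3cc, a catalytic subunit of calcineurin, had means of 58.3 CPM in RKF+ CD4+CD8+ and 37.4 CPM in RKF- CD4+CD8+ cells (log2 change 0.64, adjusted p = 0.0334). At an unadjusted p under 0.05 there were 20, DESeq2 called 3 and limma 1. Of all genes, 0.586% were called higher and 0.375% lower. The list had a median of 0.06, and all genes one of 0.01. So Cd247, Ptpn7 and Ppp3cc were the only genes called in that fit among those measured of these lists. Without 1 library, the counts called ran from 0 to 1 for TCR constant genes, 0 to 6 for kinases and phosphatases and 0 to 5 for adaptors. For the calcium, diacylglycerol and Ras branches they ran from 0 to 8, so the call of Ppp3cc was lost in at least 1 such fit. Of all genes, up to 1677 were called in these fits.

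WT CD4 SP against WT CD8 SP cells had 25 of the 62 called, 13 that rose and 12 that fell, where 7.72% of all genes were called higher and 10.3% lower. Of 3 TCR constant genes 2 rose, Trac (log2 change 0.68, adjusted p = 0.0130) and Trbc1 (0.55, 0.0160). Of 15 kinases and phosphatases 1 rose and 5 fell, among the falls the kinase Tec (-1.08, 0.000756) and the phosphatases Ptpn22 (-0.73, 0.00216) and Ptpn6 (-0.54, 0.00636). Of 20 measured adaptors and transmembrane regulators 10 rose and 3 fell. The rises included Trat1, a transmembrane adaptor (1.30, 4.63e-05), Cd28, the costimulatory receptor (1.39, 0.000136), and Cd5, an inhibitory receptor (0.92, 0.000154). Of 24 genes of the calcium, diacylglycerol and Ras branches 0 rose and 4 fell, among them Ppp3ca, a calcineurin subunit (-0.80, 0.00658), and Sos1, a Ras exchange factor (-1.01, 0.0145).

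In the other comparisons the count of pathway genes called ran from 7 to 27 of 62. RKF+ CD4+CD8+ cells had 10 that rose and 3 that fell against RKF- CD8 SP (3.4% and 2.11% of all genes), 4 and 4 against WT CD4 SP (4.36% and 2.91%), and 11 and 4 against WT CD8 SP (4.97% and 6.11%). RKF- CD4+CD8+ cells had 4 that rose and 3 that fell against RKF- CD8 SP (1.72% and 0.719%), 11 and 11 against WT CD4 SP (9.15% and 8.42%), and 8 and 9 against WT CD8 SP (5.11% and 7.04%). RKF- CD8 SP cells had 10 that rose and 17 that fell against WT CD4 SP (8.91% and 8.75%), and 12 and 12 against WT CD8 SP (7.77% and 10.6%).

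**Figure D5:**
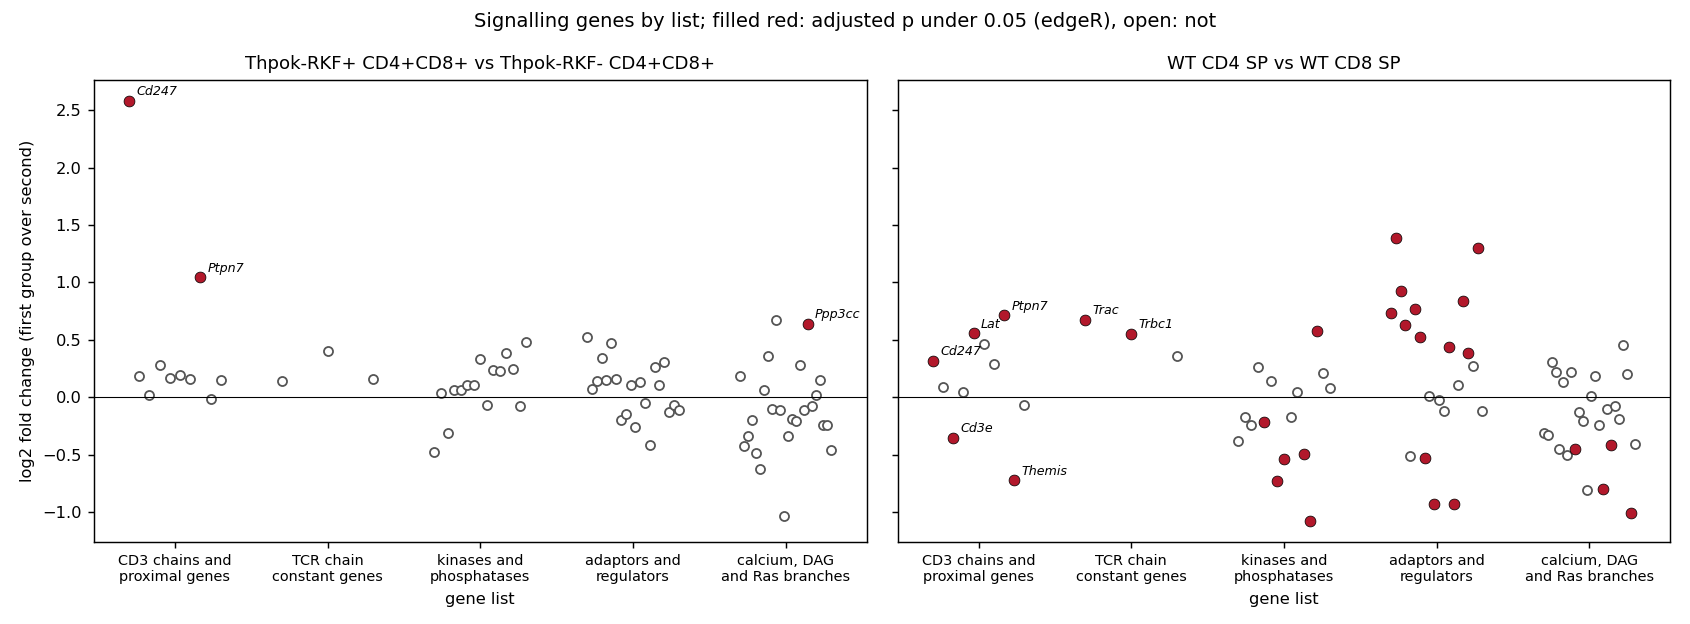
log2 fold change (first group over second) of the 10 genes and of 62 further pathway genes by list, for RKF+ against RKF- CD4+CD8+ cells and for both wild types (CD4 SP over CD8 SP), with filled points for an adjusted p under 0.05 in edgeR. In the first comparison 3 points are filled, Cd247, Ptpn7 and Ppp3cc, and in the second 5 of the 10 genes and 25 of the others are.

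Relatives of the 10 genes that other cells use in their place were at or near 0. Of 12 listed genes, 11 had at most 3.25 CPM in every library, the highest being Blk, a kinase of B cells related to Lck. Among them was Fcer1g, which stands in for the zeta chain in mast cells and other innate cells, with at most 2.81 CPM. The exception was Hcst, the adaptor DAP10, with 69.8 to 125 CPM. Of the 9 relatives tested, edgeR called 0 in RKF+ against RKF- CD4+CD8+ cells, with 3 at an unadjusted p under 0.05, while DESeq2 called 1 and limma 0. Between the wild types edgeR called 0, with 2 at an unadjusted p under 0.05, DESeq2 1 and limma 0.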

How the data were processed

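RNA from sorted mouse thymocytes (15 libraries, 5 groups of 3, grouped by population and genotype in the labels) was extracted with RNeasy Plus Micro and made into libraries with SMARTer Ultra Low Input reagents, per the labels' protocols. STAR, HTSeq, Trimmomatic, DESeq2, bcl2fastq 2.17 and the build mm39 are named without roles in the submitters' processing notes. For the annotation and the strand setting, nothing is given in the sources used here. The authors deposited raw counts per gene, which were identical in the per-library files and the table for 15 of 15 libraries. They also deposited normalised values, which are CPM: scaled back by the gene total, 100% of values were whole (tolerance 0.01) and equal to the counts. Whole-series tables each held 3 columns that matched no sample and were not used. The 5 summary lines that name no gene held 15.9% to 21.0% of each library and were left out. Replicates differed beyond sampling noise (chi-square over degrees of freedom 11.1 to 190.4).

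The edgeR 4.0.16 quasi-likelihood test (R 4.3.3) was fitted to all 15 libraries with TMM factors (0.953 to 1.05) and its expression filter (minimum count 10, minimum total 15), with Benjamini-Hochberg adjustment over 16550 genes and a threshold of 0.05. SE is the log2 change over the square root of F, and intervals are at 95%. The fit was tested on simulated data for RKF+ against RKF- CD4+CD8+. Of genes changed by a log2 of 1 it recovered 38%, and of those changed by 2 it recovered 56%. Among genes with a mean of at least 10 CPM these shares were 72.5% and 98%. Ratios were tested by exact permutation. Alternatives used relative log expression factors, no filter on low counts, DESeq2 1.42.0, limma 3.58.1 on log2 of the deposited CPM plus 1 or 0.1, only the compared groups, a replicate block, no libraries numbered 1 or a term for them, no libraries with Lyz2 above 10 CPM, and each library left out. Recovered counts and a covariate for reads outside genes were added after seeing the data. Same-numbered libraries varied together (correlation of deviations over 0.1 for every number) in 6 of 10 comparisons. The main fit had no term for this pairing, so every count of calls outside the alternatives is unpaired. The replicate block was run as an alternative only. The members, lists and naming rule were chosen with earlier results of these data known. All 10 members are named everywhere. Of each list up to 3 genes with the smallest adjusted p are named in RKF+ against RKF- CD4+CD8+ and between the wild types. The genes most like each member and the nearest tested neighbours of Cd247 are named too. Blk, Fcer1g and Hcst fell outside this rule and were chosen after their values were seen. Some genes that the rule or the marker lists hold are not reported here. Promoters of all 10 members matched the RefSeq table.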

Additional observations from a re-analysis of the deposited data

Results flagged for a closer look

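The contrast of CD4-expressing with CD8 SP cells differed between the RKF- and the WT groups for 2 of the 10 genes, by the test of the difference itself (edgeR's quasi-likelihood test, adjusted over all genes). Of all genes, 14.3% were called in this test. The WT groups came from different hosts, B2m-/- and I-Ab-/-, and both RKF- groups from B2m-/- hosts. Host and lineage therefore cannot be told apart in the WT pair. Lat had a log2 difference of -1.08 (adjusted p = 0.00146), with means of 888 CPM in RKF- CD4+CD8+ and 1277 CPM in RKF- CD8 SP cells, and of 1373 CPM in WT CD4 SP and 935 CPM in WT CD8 SP cells. Lck had a log2 difference of -0.84 (adjusted p = 0.0352), with means of 2647 CPM in RKF- CD4+CD8+ and 3416 CPM in RKF- CD8 SP cells, and of 3708 CPM in WT CD4 SP and 2682 CPM in WT CD8 SP cells. Within the pairs, edgeR called Lck in neither, with -0.37 (adjusted p = 0.462) in the mutants and 0.47 (0.0777) in the wild types. Lat was called in the WT pair (0.56, 0.0098) and not in the mutant pair (-0.52, 0.0547). In the test of the difference, Lat kept its call without any 1 library, while Lck lost it when any of 9 libraries was left out (adjusted p = 0.0505 to 0.0833).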

How the results depend on the processing

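Of 31 calls of a gene in a comparison or in the difference between contrasts, 19 held in every alternative, 12 were lost in at least 1, and 0 reversed. In RKF+ against RKF- CD4+CD8+ cells, Cd247 stayed at 2.55 to 2.66 and Ptpn7 at 0.95 to 1.20 on the log2 scale without any 1 library. All genes called there numbered 159, 428 with no filter, 676 by DESeq2, 287 by limma with a pseudocount of 1, 52 with only the compared groups, and 50 to 1677 without 1 library, the highest without RKF+ library 1. With 3 libraries a group, calls of small changes, such as those of Cd3e and Lcp2, were lost in several alternatives. The cause of each change below was not tested.

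Counts of the 10 genes called moved as follows. RKF+ against RKF- CD4+CD8+ had 2, where 159 of all genes were called, and 4 without the libraries with Lyz2 above 10 CPM, where 1804 were. RKF+ CD4+CD8+ against RKF- CD8 SP had 3, where 913 of all genes were called. With the covariate for reads outside genes it had 5, where 1222 were called. RKF+ CD4+CD8+ against WT CD4 SP had 2, 1 with no filter, only the compared groups, no libraries numbered 1 or none with high Lyz2, and 3 with relative log expression factors, DESeq2, both limma settings, the replicate block, the term for the libraries numbered 1 or the covariate. All genes called there numbered 1202, then 581 to 1498 in the settings with 1 and 1206 to 1946 in those with 3. RKF- CD4+CD8+ against RKF- CD8 SP had 1 and 2 with relative log expression factors, both limma settings, only the compared groups, the replicate block, no libraries numbered 1 or none with high Lyz2, 3 by DESeq2 or a term for the libraries numbered 1, and 4 with the covariate. All genes called there numbered 403, and 397 to 782 in these settings. RKF- CD4+CD8+ against WT CD4 SP had 3, 6 by DESeq2, the replicate block or the term, and 5 with only the compared groups, no libraries numbered 1 or none with high Lyz2. All genes called there numbered 2908, then 3713 to 4061 in the settings with 6 and 2814 to 3521 in those with 5. With no filter, RKF- CD4+CD8+ against WT CD8 SP had 1 in place of 2, RKF- CD8 SP against WT CD4 SP 2 in place of 4, and WT CD4 SP against WT CD8 SP cells 3 in place of 5. All genes called in these comparisons then numbered 2134, 3100 and 3090, in place of 2010, 2922 and 2981. The difference between contrasts had 2 and 4 with the replicate block, the term or the covariate, and the joint test had 5 and 8 with the replicate block, the term or no libraries numbered 1. All genes called in the first numbered 2360, and 2899 to 3308 in its settings. In the joint test they numbered 4616, and 5347 to 6138.

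Without 1 library, the counts ran from 2 to 3, 2 to 3, 1 to 3 and 3 to 4 for RKF+ CD4+CD8+ against RKF- CD4+CD8+, RKF- CD8 SP, WT CD4 SP and WT CD8 SP, from 1 to 2, 2 to 6 and 1 to 3 for RKF- CD4+CD8+ against the last 3 of these, from 2 to 5 and 1 to 3 for RKF- CD8 SP against WT CD4 SP and WT CD8 SP, and from 3 to 7 between the wild types. They ran from 1 to 3 for the difference between contrasts and 4 to 8 for the joint test, and the log2 difference of the Cd247 ratio from 2.37 to 2.49.

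In comparisons whose same-numbered libraries did not vary together, the replicate block gave calls for Lat in RKF+ CD4+CD8+ against WT CD4 SP (-0.47, adjusted p = 0.0226), for Cd247 (-0.25, 0.0498), Cd3g (-0.46, 0.0090) and Lck (-0.49, 0.0179) in RKF- CD4+CD8+ against WT CD4 SP, and for Lck between the wild types (0.49, 0.0181). It also gave calls for Cd3e (0.35, 0.0329) and Lcp2 (-0.45, 0.0451) in the difference between contrasts. Of the pairs in that difference, the mutant pair varied together and the WT pair did not. The block changed no other pairwise call than these and those given with the results.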
